A study of Mus musculus with 12 samples.

Results

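The genes described here are 9 genes of the complement system and of microglia, the resident macrophages of the retina: C1qa, C1qb, C1qc, C3, C4b, Cfi, Csf1r, Cx3cr1 and Aif1. They were chosen by gene symbol and make up 9 of the 37991 genes in the tables. Retinas of male mice aged 8 weeks were sequenced in 12 libraries, each a pool of retinas, with 3 libraries in each of 4 groups. F0 C57BL/6J is the standard inbred laboratory strain, F0 Cast/EiJ is an inbred strain derived from wild mice, F1 B6xCast mice had a C57BL/6J father and a Cast/EiJ mother, and F1 CastxB6 mice had the parents reversed. No engineered allele and no treatment is named for any group. Because the tissue was whole retina, the cells that made each transcript were not identified.

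Complement is a cascade of secreted proteins that tags cells, debris and synapses for removal. C1q, assembled from the products of C1qa, C1qb and C1qc, starts the classical pathway, which cleaves C4 and then C3, and fragments of C3 and C4 that stay on a surface are inactivated by factor I, the product of Cfi. In the central nervous system C1q is made chiefly by microglia, which depend on the CSF1 receptor (Csf1r), carry the fractalkine receptor (Cx3cr1) and contain the actin-binding protein IBA1 (Aif1). In the developing visual system this cascade is known for marking synapses that microglia engulf.

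C1qa (chr4:136451832-136454718), C1qb (chr4:136436044-136442102) and C1qc (chr4:136445719-136448980) lie next to each other on the minus strand of NCBI37, the build of the tables. RefSeq windows on GRCm38.p6, from 250 bases before to 50 after the transcript start, were found for 5 of the 9 genes, namely C1qb, C1qc, C3, Cx3cr1 and Aif1. Those of C1qb and C1qc are shown because these neighbours were both lower in F0 Cast/EiJ, and that of Cx3cr1 because it is the other gene with a window that was lower there. All 3 windows are on the minus strand, at chr4:136886151-136886450, chr4:136892865-136893164 and chr9:120068247-120068546 in that order, and capitals mark the letters GAGGAA on either strand, a core bound by PU.1, a transcription factor of macrophages and microglia.
C1qb: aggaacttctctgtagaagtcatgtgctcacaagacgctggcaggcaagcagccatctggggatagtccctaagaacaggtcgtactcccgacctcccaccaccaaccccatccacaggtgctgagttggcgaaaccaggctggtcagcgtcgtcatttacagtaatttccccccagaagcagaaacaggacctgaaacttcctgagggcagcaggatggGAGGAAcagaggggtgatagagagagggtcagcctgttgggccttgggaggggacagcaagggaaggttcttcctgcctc
C1qc: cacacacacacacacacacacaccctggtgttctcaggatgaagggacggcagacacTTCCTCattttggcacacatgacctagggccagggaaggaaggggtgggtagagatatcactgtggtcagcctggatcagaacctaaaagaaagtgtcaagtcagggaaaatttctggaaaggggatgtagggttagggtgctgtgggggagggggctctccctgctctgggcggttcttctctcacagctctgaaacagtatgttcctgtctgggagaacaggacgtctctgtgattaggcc
Cx3cr1: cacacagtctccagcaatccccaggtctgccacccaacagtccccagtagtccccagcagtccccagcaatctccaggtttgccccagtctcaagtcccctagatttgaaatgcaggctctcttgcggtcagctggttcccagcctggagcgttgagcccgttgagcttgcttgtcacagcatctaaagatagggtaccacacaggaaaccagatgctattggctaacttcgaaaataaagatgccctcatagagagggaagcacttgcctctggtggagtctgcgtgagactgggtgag
The letters were found at 1 place in C1qb, starting 30 bases before the transcript start, at 1 place in C1qc, starting 193 bases before it, and at 1 place in Aif1, starting 7 bases before it. They were not in the windows of C3 and Cx3cr1. Of all 32851 windows of this length, 28.3% held these letters, so a match is a description and not a binding site. A core of NF-kB sites, searched on both strands, was in none of the 5 windows and in 1.63% of all windows.

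Expression was measured as count equivalents, which are read pairs per gene after the authors' model had shared out ambiguous pairs and scaled each column, and an F1 library has a column for each allele. Column totals lay between 12648792 and 13843914. Unique hits, the read pairs that fit a single gene and, in F1, a single allele, totalled from 8158534 to 12363291 per library. The labelled tissue carried its defining markers, since the summed level of 8 rod genes was 16490 to 18350 FPKM (fragments per length of transcript and per size of library) over the 12 libraries. Differences are given on the scale of log2(count equivalents + 1), which understates changes of low genes, as Cast/EiJ minus C57BL/6J, with the p from limma adjusted by the Benjamini-Hochberg method over all autosomal genes tested. Differences with an adjusted p below 0.05 are named as called. Nothing in the labels ties the pools to separate litters, so p-values measure the spread between these pools.

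The 9 genes were expressed at low levels. Compared per length in F0 C57BL/6J, C1qa had the highest mean level at 2.39 ± 0.475 FPKM (SD, n = 3), followed by C1qb at 2.19 ± 0.0538 FPKM, C1qc at 1.85 ± 0.571 FPKM and Csf1r at 1.81 ± 0.268 FPKM. The ranges of these neighbours overlapped. C4b at 1.02 ± 0.197 FPKM lay below them and Cx3cr1 at 0.674 ± 0.0655 FPKM lay below C4b, in each case without overlap. C3 at 0.404 ± 0.133 FPKM, Cfi at 0.399 ± 0.135 FPKM and Aif1 at 0.264 ± 0.123 FPKM came last, below Cx3cr1 in the mean and with overlap among these 3.

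In F0 Cast/EiJ the order of mean levels began with Csf1r at 1.29 ± 0.531 FPKM (SD, n = 3) and C4b at 1.26 ± 0.344 FPKM. C1qb at 0.825 ± 0.239 FPKM, C1qc at 0.744 ± 0.378 FPKM and C1qa at 0.617 ± 0.135 FPKM followed. C3 at 0.426 ± 0.0958 FPKM, Cx3cr1 at 0.387 ± 0.0537 FPKM, Aif1 at 0.276 ± 0.0651 FPKM and Cfi at 0.190 ± 0.0869 FPKM were lowest. Every pair of neighbours in this order overlapped except Cx3cr1 and Aif1. C1qa thus held rank 1 of the 9 levels in C57BL/6J and rank 5 in Cast/EiJ. With 3 libraries against 3, an exact two-sided permutation test of a pair cannot go below p = 0.1, so the order was not tested.

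**Figure D1:**
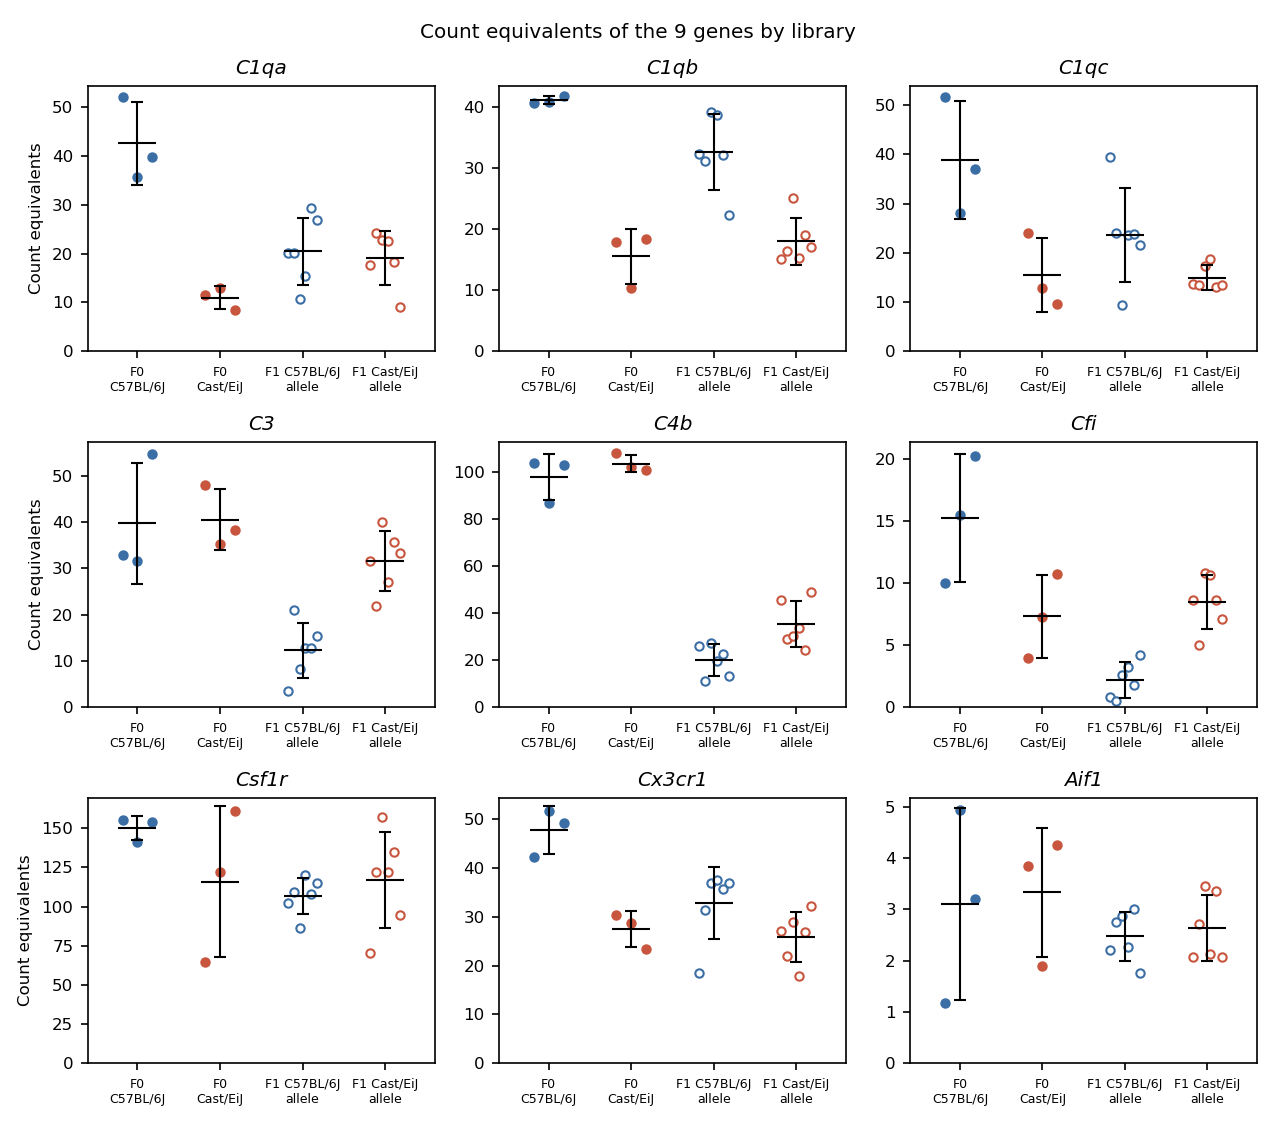
Count equivalents (y axes, linear from 0) of the 9 genes in the F0 strains (filled points, 3 libraries each) and of each allele in the F1 hybrids (open points, 6 libraries). The horizontal lines are means and the bars 1 SD. The C1q genes and Cx3cr1 were lower in every F0 Cast/EiJ library than in any F0 C57BL/6J library. For C3, C4b and Cfi the F1 C57BL/6J allele lay below the Cast/EiJ allele in the mean, and below F0 C57BL/6J.

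To ask how the strains differ, the F0 libraries were compared. Of the 9 genes, 8 could be tested and 4 were called, all lower in Cast/EiJ, namely the 3 C1q genes and Cx3cr1. Of all 14452 genes tested, 33.8% were called, 16.6% as lower and 17.2% as higher. The median difference was -0.89 over the 8 genes and 0.03 over all genes tested. The 4 called genes were also the ones whose F0 groups did not overlap, with Cast/EiJ lower, as was true of 22.7% of all genes tested, while 48.0% did not overlap in either direction.

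C1qa encodes the A chain of C1q. It had 52.1, 35.7 and 39.8 count equivalents in the F0 C57BL/6J libraries and 11.6, 13 and 8.38 in the F0 Cast/EiJ libraries. Every Cast/EiJ library was far below every C57BL/6J library. The log2 difference was -1.86 ± 0.28 (SE, adjusted p = 0.00107, limma), 3.64-fold lower in Cast/EiJ.

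C1qb encodes the B chain. It had 40.7, 40.9 and 41.9 count equivalents in F0 C57BL/6J and 17.9, 10.4 and 18.4 in F0 Cast/EiJ. The C57BL/6J libraries were nearly alike and the groups did not overlap. On the log2 scale the difference was -1.39 ± 0.27 (SE, adjusted p = 0.00483, limma), 2.62-fold lower in Cast/EiJ.

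C1qc encodes the C chain. It had 51.7, 28.0 and 37.0 count equivalents in F0 C57BL/6J and 24.0, 12.9 and 9.56 in F0 Cast/EiJ. The groups came close but did not overlap. They differed by -1.33 ± 0.37 on the log2 scale (SE, adjusted p = 0.0232, limma).

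Cx3cr1 (chr9:119957811-119977400, minus strand) encodes the receptor for fractalkine, a ligand that neurons display. It had 42.3, 51.7 and 49.1 count equivalents in F0 C57BL/6J and 30.4, 28.8 and 23.3 in F0 Cast/EiJ. All Cast/EiJ libraries were lower than all C57BL/6J libraries. They stood apart by a log2 difference of -0.78 ± 0.21 (SE, adjusted p = 0.0204, limma).

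The calls for C1qa and C1qb held when any F0 library was left out. That for C1qc was lost with no filter on low values (adjusted p = 0.170, limma). Those for C1qc and Cx3cr1 were both lost without F0 C57BL/6J replicate 3 (adjusted p = 0.0614 and 0.0653, limma) and without F0 Cast/EiJ replicate 3 (adjusted p = 0.0702 and 0.0601, limma), which left 2 called genes. C1qc was also lost without F0 C57BL/6J replicate 1 or F0 Cast/EiJ replicate 2 (adjusted p = 0.0716 and 0.0714, limma), and Cx3cr1 without F0 C57BL/6J replicate 2 (adjusted p = 0.0791, limma). In bulk retina, fewer cells of a type and less RNA per cell cannot be told apart.

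The F0 difference of the other genes did not pass the test. Csf1r (chr18:61265226-61291803, plus strand), the receptor through which CSF1 and IL34 sustain microglia, had 155, 141 and 154 count equivalents in F0 C57BL/6J and 64.8, 122 and 161 in F0 Cast/EiJ. Cast/EiJ replicate 1 stood far below the other libraries and the groups overlapped. Its log2 difference was -0.46 (95% interval -1.11 to 0.18, adjusted p = 0.241, limma), and it ran from -0.75 to -0.10 with a library left out, the latter without Cast/EiJ replicate 1. Csf1r overlaps Hmgxb3 on the opposite strand, 16.8% of the read-length words of its longest transcript occur in that gene as well, and the libraries did not mark strand, so reads of the overlap cannot be assigned by strand.

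C3 (chr17:57343393-57367559, minus strand), the component on which all complement pathways converge, had 32.9, 31.5 and 54.7 count equivalents in F0 C57BL/6J and 47.9, 35.3 and 38.2 in F0 Cast/EiJ. The groups overlapped throughout, with a log2 difference of 0.06 (95% interval -0.53 to 0.65, adjusted p = 0.882, limma), and its sign turned in 5 of 16 alternative settings. Cfi (chr3:129539655-129578246, plus strand), the protease that inactivates C3b and C4b, had 9.98, 15.5 and 20.2 count equivalents in F0 C57BL/6J and 3.97, 7.26 and 10.7 in F0 Cast/EiJ. The highest Cast/EiJ library lay just above the lowest C57BL/6J library. Its log2 difference was -0.9998 (95% interval -1.97 to -0.03, adjusted p = 0.103, limma).

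C4b (chr17:34865325-34880827, minus strand), which encodes complement C4, had 104, 86.7 and 103 count equivalents in F0 C57BL/6J and 108 and 102 in F0 Cast/EiJ replicates 1 and 2, with replicate 3 lower than replicate 2 by 1. The strains were nearly level, with a log2 difference of 0.09 (95% interval -0.23 to 0.41, adjusted p = 0.672, limma). Aif1 (chr17:35307936-35313013, minus strand) had 1.18, 4.93 and 3.20 count equivalents in F0 C57BL/6J and 3.84, 1.90 and 4.26 in F0 Cast/EiJ. With 1 to 4 unique hits per F0 library and no allele-specific hit in F1, it was under the filters on low values. With no filter its F0 difference was 0.15 and its allelic difference 0.06, neither called (adjusted p = 1.0 for both, limma), so a difference was not detectable at this depth.

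Markers of other cells moved between the F0 strains as well, where 33.8% of all genes tested were called, 16.6% as lower and 17.2% as higher. Of 8 vascular markers tested, 4 were called, with Rgs5 (-1.62), Pecam1 (-0.98) and Cdh5 (-0.96) lower and Kdr (0.65) higher in Cast/EiJ on the log2 scale. Their summed level was 37.5 to 46.5 FPKM in F0 C57BL/6J and 37.4 to 48.1 in F0 Cast/EiJ. Of 4 blood markers tested out of 7, 3 were called lower, with a summed level of 76.0 to 115 FPKM in F0 C57BL/6J and 35.5 to 58.2 in F0 Cast/EiJ. They were Hbb-b1 at -1.13, Hba-a2 at -4.97, and Hbb-b2, which had 48 unique hits in F0 C57BL/6J and 0 in F0 Cast/EiJ. Hba-a1, the other marker tested, was higher at 0.52 but not called (adjusted p = 0.051, limma). Globin genes have near-identical copies that make their values uncertain. Of 10 markers of perivascular macrophages and monocytes, 8 had a mean level under 0.1 FPKM, Mrc1 and Plac8 had no unique hit in F0, and the 1 gene tested was not called. Their summed level was 2.74 to 3.28 FPKM in F0 C57BL/6J and 2.54 to 3.16 in F0 Cast/EiJ.

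Of 6 pigment epithelium markers tested out of 7, Ttr (-1.77) and Rgr (-1.52) were called lower, 5 were below 0 and the median was -0.46. The summed level of the 7 was 82.8 to 97.4 FPKM in F0 C57BL/6J and 89.3 to 105 in F0 Cast/EiJ. Ttr had means of 6.44 and 1.90 FPKM in these strains and Rgr of 2.49 and 0.889, so other genes made up most of the sum. Of 9 markers of Mueller glia and astrocytes, 5 were called, among them Vim (-0.64), Gfap (-0.49) and Glul (-0.32) as lower and Aqp4 (0.38) as higher, and their summed level was 1055 to 1267 FPKM in F0 C57BL/6J and 936 to 1092 in F0 Cast/EiJ. Of 17 alternative settings, 7 lost the call of Glul, 4 that of Gfap and 3 that of Vim. Of 8 rod genes only Sag (1.18) was called, and none of 4 lens genes tested out of 7 was called (limma, 0 at an unadjusted p under 0.05), with a summed lens level of 1.03 to 13.8 FPKM in F0 C57BL/6J and 5.81 to 15.8 in F0 Cast/EiJ. The part of these markers in the strain differences of the complement and microglia genes was not tested.

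**Figure D2:**
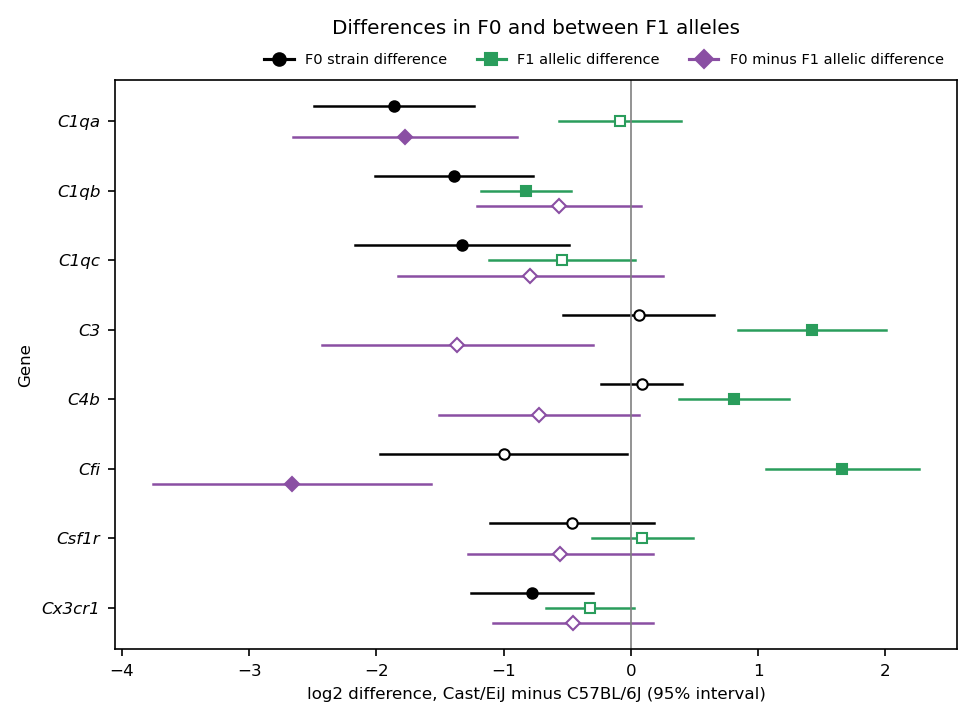
Log2 differences, Cast/EiJ minus C57BL/6J, with 95% intervals for the 8 genes tested (y axis), between the F0 strains, between the F1 alleles, and for the F0 difference less the allelic difference. Filled symbols are called. For C1qa the F0 difference was -1.86 and the allelic difference -0.09, and for Cfi they were -0.9998 and 1.66, on either side of 0.

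In the F1 hybrids both alleles share a nucleus, and the comparison asks whether a strain difference goes with the allele itself. Of the 8 genes tested, 4 were called, C1qb with less and C3, C4b and Cfi with more of the Cast/EiJ allele. Of all 13414 genes tested, 47.0% were called, with 23.5% in either direction, so the share of the members called was near that of all genes. The median allelic difference was 0.00 over the 8 genes and over all genes tested. The depth was low, with 10.7 to 109 allele-specific hits per F1 library for these genes, and the Wilson intervals below cover counting error only.

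C1qb had 22.3 to 39.2 count equivalents of the C57BL/6J allele (median 32.2) and 15.1 to 25.2 of the Cast/EiJ allele (median 16.8) over the 6 F1 libraries. The ranges overlapped slightly, yet the Cast/EiJ allele was lower in 6 of 6 libraries, by a log2 difference of -0.82 ± 0.17 (SE, adjusted p = 0.000689, limma). Of 164 allele-specific hits, 35.4% came from Cast/EiJ (95% Wilson interval 28.5 to 42.9).

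C1qa had 10.8 to 29.4 count equivalents of the C57BL/6J allele (median 20.1) and 9.15 to 24.3 of the Cast/EiJ allele (median 20.4). The ranges overlapped almost fully, and each allele was the higher in 3 of 6 libraries. The log2 difference was -0.09 (95% interval -0.57 to 0.40, adjusted p = 0.789, limma), and 48.8% of 129 hits came from Cast/EiJ (95% Wilson interval 40.4 to 57.4). C1qc had 9.40 to 39.4 count equivalents of the C57BL/6J allele (median 23.8) and 13.1 to 18.8 of the Cast/EiJ allele (median 13.5). The Cast/EiJ allele was lower in 5 of 6 libraries, with a log2 difference of -0.54 (95% interval -1.11 to 0.03, adjusted p = 0.115, limma) and 38.3% of 128 hits (95% Wilson interval 30.3 to 46.9). Without F1 B6xCast replicate 3, the library in which the order was turned, it was called at -0.86 (adjusted p = 0.0077, limma), and on the log expression values with posterior SD weights at -0.77 (adjusted p = 0.0299, limma). These were the 2 of 21 alternative settings that called it, and with a library left out it ran from -0.86 to -0.29.

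C3 had 3.51 to 21.0 count equivalents of the C57BL/6J allele (median 12.8) and 21.9 to 40.0 of the Cast/EiJ allele (median 32.4). The alleles did not overlap, and the Cast/EiJ allele was higher in 6 of 6 libraries, by a log2 difference of 1.42 ± 0.28 (SE, adjusted p = 0.000427, limma), 2.68-fold, and 70.0% of 100 hits came from Cast/EiJ (95% Wilson interval 60.4 to 78.1). By hits alone the Cast/EiJ allele was higher in 5 of 6 libraries, with 12 hits against 11 the other way in F1 B6xCast replicate 2. The C57BL/6J allele averaged 12.3 count equivalents against 39.7 in F0 C57BL/6J, and the Cast/EiJ allele 31.6 against 40.5 in F0 Cast/EiJ.

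Cfi had 0.521 to 4.21 count equivalents of the C57BL/6J allele (median 2.19) and 5.01 to 10.8 of the Cast/EiJ allele (median 8.62). The alleles did not overlap, and the Cast/EiJ allele was higher in 6 of 6 libraries. The log2 difference was 1.66 ± 0.28 (SE, adjusted p = 0.000126, limma). Only 64 hits stood behind it, 49 of them from Cast/EiJ (76.6%, 95% Wilson interval 64.9 to 85.2), and the C57BL/6J allele had 1 to 5 hits per library. That allele averaged 2.19 count equivalents against 15.2 in F0 C57BL/6J, and the Cast/EiJ allele 8.46 against 7.31 in F0 Cast/EiJ.

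C4b had 11.4 to 27.5 count equivalents of the C57BL/6J allele (median 21.2) and 24.5 to 49.1 of the Cast/EiJ allele (median 32.0). The ranges overlapped slightly, and the Cast/EiJ allele was higher in 6 of 6 libraries. The log2 difference was 0.81 ± 0.20 (SE, adjusted p = 0.00369, limma), and 63.4% of 153 hits came from Cast/EiJ (95% Wilson interval 55.5 to 70.6). By hits alone it was higher in 5 of 6 libraries and level, at 10 hits each, in F1 B6xCast replicate 3. Both alleles lay below F0, the C57BL/6J allele at a mean of 20.1 against 97.9 count equivalents and the Cast/EiJ allele at 35.4 against 103.7. The difference did not pass the test with the log expression values in place of count equivalents, without or with weights from their posterior SD (adjusted p = 0.0711 and 0.101, limma).

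Cx3cr1 had 18.5 to 37.5 count equivalents of the C57BL/6J allele (median 36.2) and 17.9 to 32.1 of the Cast/EiJ allele (median 26.9). The Cast/EiJ allele was lower in 5 of 6 libraries, but the log2 difference of -0.32 (95% interval -0.67 to 0.03, adjusted p = 0.121, limma) did not pass the test. It did without F1 B6xCast replicate 1, the library in which the order was turned (-0.48, adjusted p = 0.0235, limma). Csf1r had 86.3 to 120 count equivalents of the C57BL/6J allele (median 108) and 70.3 to 157 of the Cast/EiJ allele (median 122). The Cast/EiJ allele was higher in 4 of 6 libraries, and the log2 difference was 0.09 (95% interval -0.31 to 0.49, adjusted p = 0.724, limma), with 54.8% of 653 hits from Cast/EiJ (95% Wilson interval 51.0 to 58.6). On the log expression values with posterior SD weights it was called at 0.41 (adjusted p = 0.0398, limma).

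**Figure D3:**
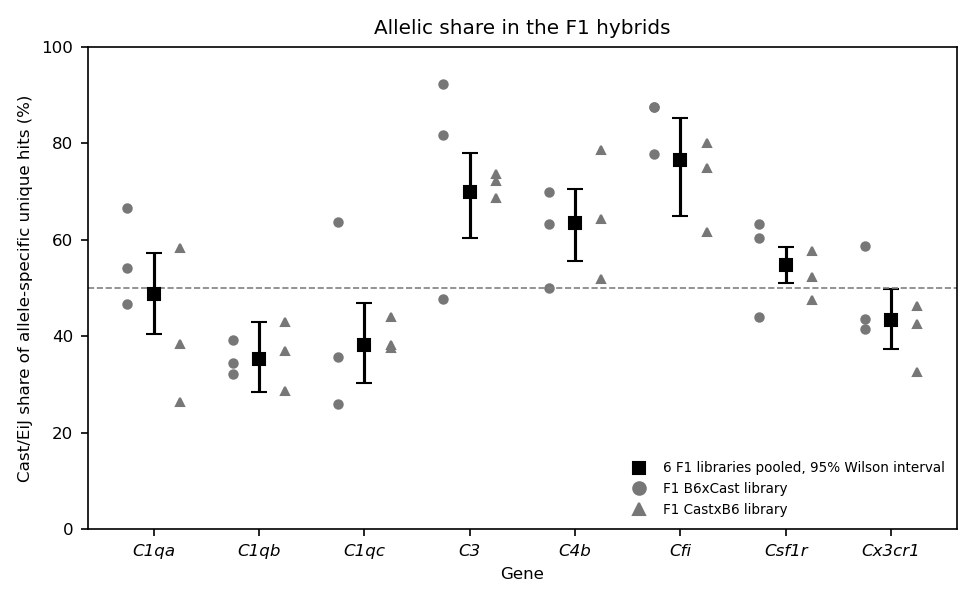
Share of allele-specific unique hits from the Cast/EiJ allele (y axis, percent) for the 8 genes with such hits. Squares pool the 6 F1 libraries with 95% Wilson intervals, circles and triangles are single libraries of each cross, and the dashed line marks equal alleles. C1qb was at 35.4%, C3 at 70.0% and Cfi at 76.6%.

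The F0 difference less the F1 allelic difference, called the trans component here as it is what the alleles do not show within a nucleus, was called for 2 of the 8 genes, both below 0. Of all 13414 genes tested, 14.0% were called, 8.31% below and 5.64% above 0. All 8 values were below 0, with a median of -0.76 against 0.00 over all genes tested. The value shares its libraries with the F0 and the allelic comparison, and the F1 libraries had been mapped to a hybrid reference and sequenced on a second lane, which cannot be told apart from generation.

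For C1qa the F0 difference of -1.86 stood against an allelic difference of -0.09, and the component was -1.78 ± 0.42 (SE, adjusted p = 0.00839, limma). For Cfi the F0 difference of -0.9998 stood against an allelic difference of 1.66 in the opposite direction, and the component was -2.66 ± 0.52 (SE, adjusted p = 0.00213, limma). Both calls held in all 20 alternative settings, where the component ran from -2.01 to -1.50 for C1qa and from -3.36 to -1.63 for Cfi. The allelic difference of Cfi ran from 0.91 to 2.24 over 21 settings. Markers of other cells had called components too, below 0 for 3 of 5 pigment epithelium and 2 of 2 blood markers tested, and for 2 of 8 vascular markers, with 1 above 0. Their part in these components was not tested.

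C3 had an F0 difference of 0.06, an allelic difference of 1.42 and a component of -1.36 (95% interval -2.43 to -0.30, adjusted p = 0.0827, limma), which passed the test without F1 B6xCast replicate 2 (adjusted p = 0.00405, limma) and in edgeR on unique hits (adjusted p = 0.0246).

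For C1qb the component was -0.57 (95% interval -1.21 to 0.08), for C1qc -0.79 (-1.83 to 0.25), for C4b -0.72 (-1.51 to 0.07), for Csf1r -0.55 (-1.28 to 0.17) and for Cx3cr1 -0.45 (-1.09 to 0.18). None of these passed the test, and the wide intervals leave the size of the component undetermined at this depth. The components of C1qa and C1qb were not tested against each other.

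The reciprocal crosses swap which parent gave each allele. Parental origin made no called difference for the 8 genes tested, where limma called 0 and found 0 at an unadjusted p under 0.05, and edgeR and DESeq2 called 0. Of all genes tested 0.492% were called. The maternal minus paternal differences ran from -0.08 for C4b to 0.44 for C1qa (95% interval -0.04 to 0.93). The level averaged over the alleles did not differ by cross either, with 0 of 8 genes called by limma, edgeR and DESeq2, 0 at an unadjusted p under 0.05 in limma, and 0.0816% of all genes called, 0.0272% as higher and 0.0544% as lower in F1 CastxB6. C1qa averaged 19.3 ± 2.78 count equivalents (SD, n = 3) in F1 B6xCast and 20.3 ± 3.15 in F1 CastxB6, and Cx3cr1 averaged 27.4 ± 5.15 and 31.1 ± 3.38.

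Against the mean of the F0 strains, the F1 level was called for 2 of 8 genes, C4b and C3, both lower, where 12.2% of all 14710 genes tested were called, 5.03% as lower and 7.19% as higher. C4b had 20.2 to 35.9 count equivalents averaged over the alleles in the 6 F1 libraries (median 27.8), against 86.7 to 108 in the 6 F0 libraries. Every F1 library lay far below every F0 library, with a log2 difference of -1.84 ± 0.14 (SE, adjusted p = 1.74e-06, limma), 3.59-fold lower. C3 had 17.5 to 24.3 count equivalents in F1 (median 22.8) against 31.5 to 54.7 in F0, again without overlap, with a log2 difference of -0.82 ± 0.16 (SE, adjusted p = 0.00507, limma), a call lost on the log expression values with posterior SD weights (adjusted p = 0.0561, limma). The C1q genes, Cfi, Csf1r and Cx3cr1 did not pass this test, with differences from -0.85 for Cfi to 0.00 for C1qb. Cfi was called in 4 of 20 alternative settings, among them those without F0 C57BL/6J replicate 1 or F0 Cast/EiJ replicate 1 (adjusted p = 0.0408 and 0.0228, limma). Some markers of other cells were called in this comparison as well, Gfap (-0.96) and Hba-a1 (-1.5) as lower. Hbb-b2 (2.11), Lyve1 (0.38) and the rod gene Cnga1 (0.15) were called higher, and the part of these markers was not tested.

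C4b has a near-identical copy, C4a (chr17:34946037-34960409, minus strand, annotated as a processed transcript), and 16.3% of the read-length words of the longest C4b transcript occur in C4a as well. C4a had 6.16, 10.4 and 6.79 count equivalents in F0 C57BL/6J and 70.5, 29.4 and 36.1 in F0 Cast/EiJ. All Cast/EiJ libraries were higher, by 2.33 ± 0.38 on the log2 scale (SE, adjusted p = 0.00166, limma), and the Cast/EiJ allele was higher in 6 of 6 F1 libraries (1.49 ± 0.35, adjusted p = 0.00212, limma). By hits alone the alleles were level, at 15 each, in F1 B6xCast replicate 3. The copies together had 106 ± 7.44 count equivalents (SD, n = 3) in F0 C57BL/6J, 149 ± 25.7 in F0 Cast/EiJ, 53.6 ± 13.2 in F1 B6xCast and 47.2 ± 9.80 in F1 CastxB6. Because the model divides shared reads between the copies, the values of either copy are uncertain.

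**Figure D4:**
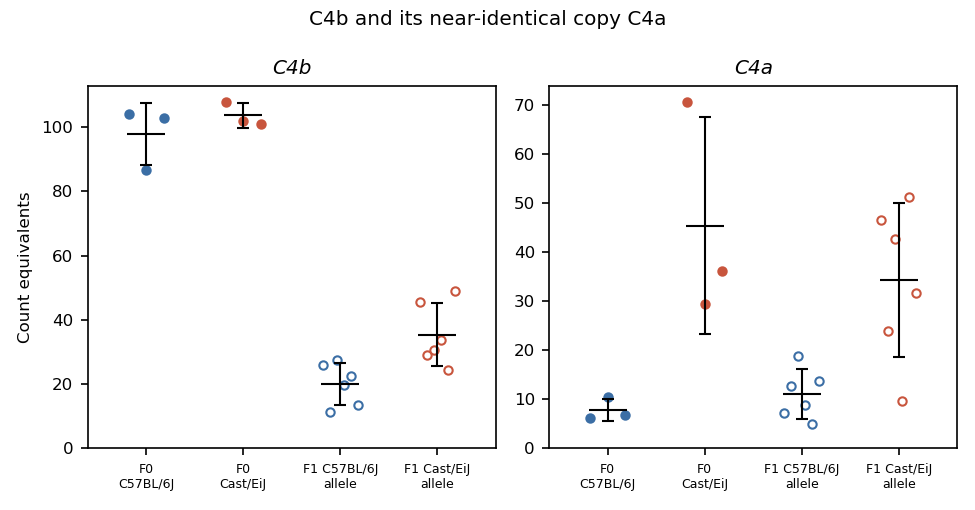
Count equivalents (y axes, linear from 0, different scales) of C4b and of its copy C4a in the F0 strains (filled points, 3 libraries each) and for each allele in the F1 hybrids (open points, 6 libraries). Horizontal lines are means and bars 1 SD. C4b was lower in F1 than in F0, and C4a was higher in F0 Cast/EiJ than in F0 C57BL/6J.

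Among other genes of the classical and lectin pathways, 5 of 8 could be tested between the F0 strains and 4 were called, against 33.8% of all genes tested. C4a, C2 (1.68 ± 0.32), which supplies the catalytic part of the C3 convertase, and Masp2 (1.65 ± 0.36), a protease that cleaves C4 and C2 in the lectin pathway, were higher in Cast/EiJ. Serping1, the inhibitor of the C1 proteases, was lower (-1.13 ± 0.37, adjusted p = 0.0414, limma). C2 had 27 unique hits in F0 C57BL/6J and 32 in F0 Cast/EiJ, and its difference was 0.54 in edgeR on these hits (adjusted p = 0.246). Serping1 was not called without any of 5 F0 libraries in turn, with adjusted p up to 0.11 (limma). The median was 1.65 against 0.03 over all genes tested. Between the F1 alleles 2 of 4 were called, Masp2 at 2.31 ± 0.35 and C4a, against 47.0% of all genes tested. The trans component was called for 1 of 4, Serping1 at -1.60 ± 0.42 (SE, adjusted p = 0.0176, limma), against 14.0% of all genes. That call was lost without F0 Cast/EiJ replicate 3 and with no filter (adjusted p = 0.0588 and 0.0627, limma).

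Of the alternative pathway and terminal components only 1 of 10 passed the F0 filter, and it was not called. Cfd, Hc, C7 and C9 had no unique hit in any F0 library. C8g, a subunit of the membrane attack complex, was called for the trans component at -2.01 ± 0.55 (SE, adjusted p = 0.0215, limma), with 9.09 ± 1.46 count equivalents (SD, n = 3) in F0 C57BL/6J and 1.24 ± 0.765 in F0 Cast/EiJ. This call was lost in 6 of 20 alternative settings.

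The list of regulators had the highest summed level of the complement lists, 552 to 693 FPKM in F0 against 5.94 to 11.8 for the 9 genes. Vtn and Clu made up most of this sum. In F0 C57BL/6J and F0 Cast/EiJ, Vtn had means of 328 and 483 FPKM and Clu of 204 and 151. Other regulators were far lower, such as Cd59a at 15.1 and 3.92 FPKM and Cd55 at 0.12 and 0.22. Of 12 regulators tested out of 13 between the F0 strains, 6 were called, 5 lower and 1 higher, with a median of -0.25. Of all genes tested 33.8% were called, 16.6% as lower and 17.2% as higher. Cd59a, which blocks the membrane attack complex, fell from 462 ± 50.5 count equivalents in F0 C57BL/6J to 122 ± 4.36 in F0 Cast/EiJ (SD, n = 3), a log2 difference of -1.91 ± 0.11 (SE, adjusted p = 3.41e-06, limma). Cd46, a membrane cofactor of factor I, fell from 32.7 ± 1.63 to 15.4 ± 2.67 (-1.05 ± 0.25, adjusted p = 0.0109, limma), and Vtn, encoding vitronectin, rose from 9577 ± 641 to 13800 ± 265 (0.53 ± 0.07, adjusted p = 0.000617, limma).

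Between the F1 alleles 7 of 11 regulators were called, 5 with less and 2 with more of the Cast/EiJ allele. Of all genes tested 47.0% were called, 23.5% in either direction. Cd59a was at -1.51 ± 0.06 and Cd46 at -0.40 ± 0.14 (SE), in the same direction as between the strains, and Cd46 was lost in 7 of 21 alternative settings. Cd55, which speeds the decay of the convertases, was at 0.86 ± 0.28, a call lost in 8 of 21 alternative settings, and Csmd3 was at 0.43 ± 0.12. The trans component was called for 3 of 11, against 14.0% of all genes tested. They were Vtn (0.49 ± 0.06), Cd59a (-0.40 ± 0.11) and Clu (-0.29 ± 0.06), which encodes clusterin, and the call of Cd59a was lost in 7 of 21 alternative settings.

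Only 2 of 9 complement receptors could be tested, and both were called lower in F0 Cast/EiJ, as were 16.6% of all genes tested. Itgam, a chain of the receptor for inactivated C3b on microglia and myeloid cells, had 35.5 ± 9.04 count equivalents in F0 C57BL/6J and 13.7 ± 1.80 in F0 Cast/EiJ (SD, n = 3), a log2 difference of -1.29 ± 0.28 (SE, adjusted p = 0.00781, limma). Cd93, a surface protein of endothelial and myeloid cells, was at -1.35 ± 0.35 (SE, adjusted p = 0.0165, limma). The call was lost in 4 of 16 alternative settings for Cd93 and in 2 of 16 for Itgam. Neither passed between the F1 alleles nor for the trans component, where limma found 0 and 1 of the 2 at an unadjusted p under 0.05.

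Of 30 further microglia-enriched genes, 16 could be tested between the F0 strains and 2 were called, both lower in Cast/EiJ, with a median of -0.06. Ctss, encoding the lysosomal protease cathepsin S, had 91.0 ± 4.52 count equivalents in F0 C57BL/6J and 51.4 ± 10.3 in F0 Cast/EiJ (SD, n = 3), a log2 difference of -0.83 ± 0.19 (SE, adjusted p = 0.00888, limma). Laptm5, a lysosomal membrane protein of blood-derived cells, was at -0.98 ± 0.21 (SE, adjusted p = 0.00716, limma). The share of this list that was called, 2 of 16, was below the 33.8% of all genes tested, and its summed level was 38.0 to 39.4 FPKM in F0 C57BL/6J and 33.2 to 37.0 in F0 Cast/EiJ. Between the F1 alleles 3 of 15 were called, against 47.0% of all genes tested. They were Fcrls at 2.81 ± 0.41, with 5 hits of the C57BL/6J allele over all F1 libraries, Golm1 at 0.71 ± 0.10 and Selplg at -1.43 ± 0.23 (SE). The trans component of none of the 15 was called by limma, with 4 at an unadjusted p under 0.05.

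Among the ligands of microglial receptors, 7 of 7 were tested between the F0 strains and 2 were called, both lower, with a median of -0.25. This was near the 33.8% called over all genes tested. Cx3cl1, which encodes fractalkine, the ligand of the Cx3cr1 product, had 1267 ± 90.2 count equivalents in F0 C57BL/6J and 775 ± 76.3 in F0 Cast/EiJ (SD, n = 3). The groups differed by -0.71 ± 0.09 on the log2 scale (SE, adjusted p = 0.000491, limma), the Cast/EiJ allele was lower by -0.31 ± 0.05 in F1 (SE, adjusted p = 4.26e-05, limma), and the trans component was -0.39 ± 0.09 (SE, adjusted p = 0.00595, limma). Apoe was at -0.25 ± 0.08 between the strains and at 0.26 ± 0.10 between the alleles, and Tgfb2 at 0.24 ± 0.06 between the alleles (SE), and the calls of Apoe were lost in 7 of 17 and 7 of 22 alternative settings. In all, 3 of 5 ligands were called between the alleles and 1 of 5 for the trans component, against 47.0% and 14.0% of all genes tested.

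**Figure D5:**
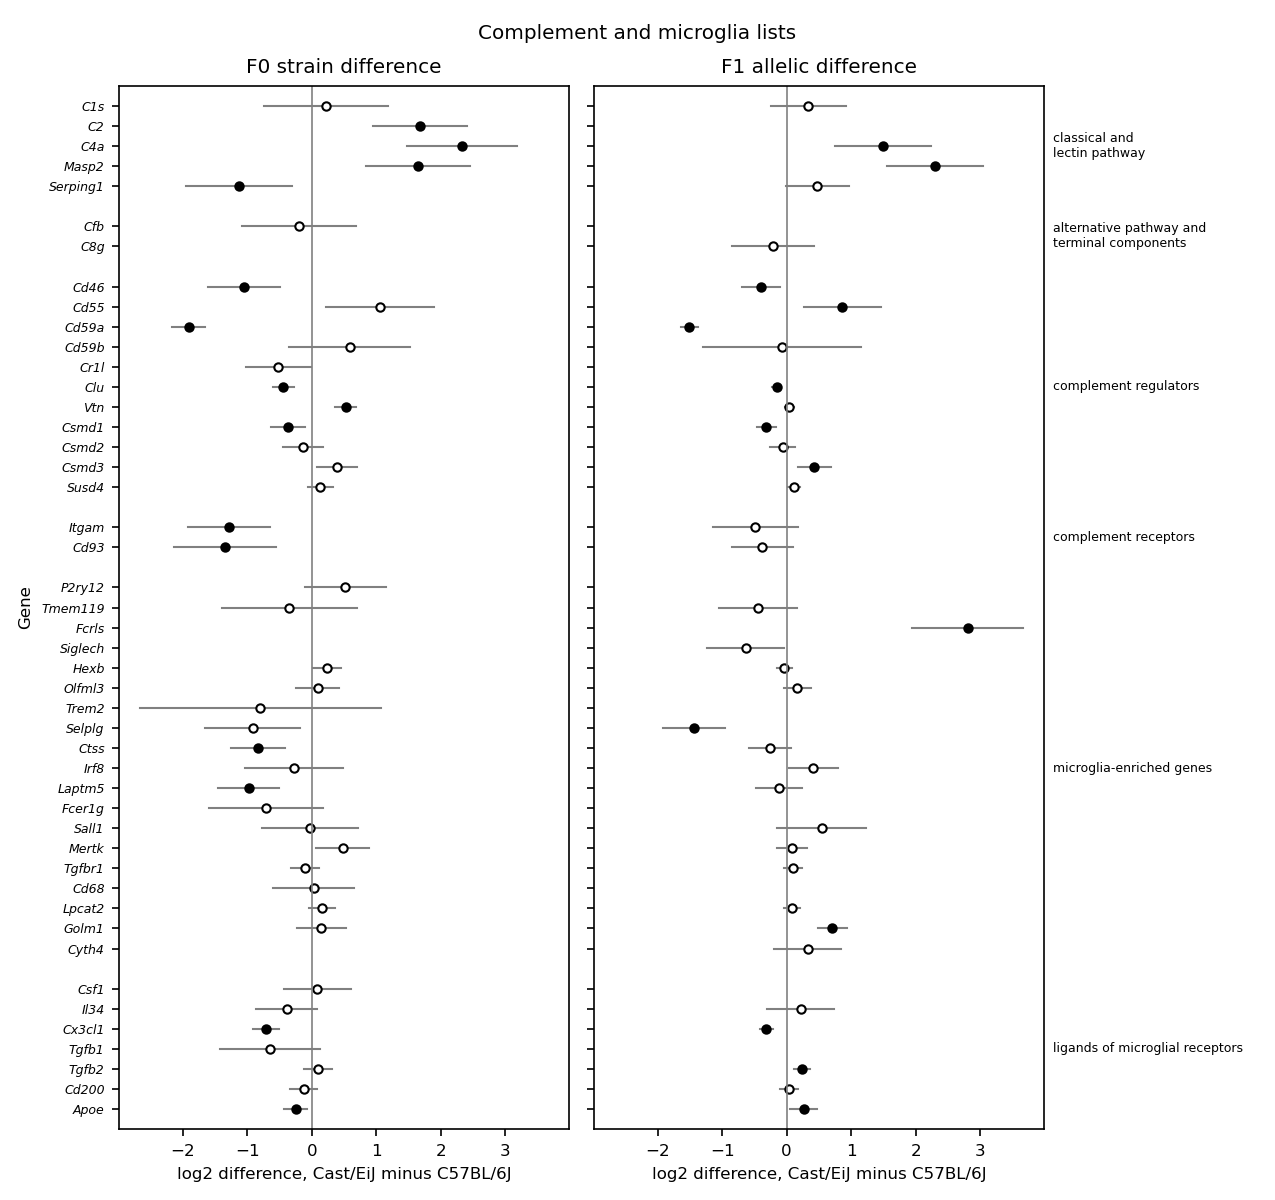
Log2 differences (x axes, Cast/EiJ minus C57BL/6J) with 95% intervals for all but 1 of the genes of the 6 complement and microglia lists that could be tested (y axis), between the F0 strains (left) and between the F1 alleles (right). Filled points are called. Cd59a lay below 0 and C4a and Masp2 above 0 in both panels.

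After subtraction of group means, the genes most like the mean of the C1q genes over the 12 libraries were Qsox2, Tctn2, Utp3, Slc45a1 and Zfp518a, with Pearson's r from 0.950 to 0.984, and those most like C4b were Acad9, Mepce, Gm10275, Ebf1 and Nnat, with r from 0.880 to 0.963. They were the highest of 11624 and 11623 genes, picked for that, so these values are a description.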

How the data were processed

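The 9 genes, their lists and the tests were chosen with earlier results of these data known. The submitters' processing notes name Trim Galore 0.2.6 and Bowtie 0.12.9, and the authors estimated expression with MMSEQ on transcriptomes of each strain (F0) or of the hybrid (F1), build NCBI37. Each library was a pool of retinas, sequenced on 1 lane for F0 and on 2 for F1. The authors deposited count equivalents (signal, normalized, not whole), the natural log of expression, whose exponential is FPKM, its posterior SD (score), and counts of unique hits. Their table of posterior probabilities and Bayes factors was not used, and its 36 per-sample columns were left out.

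Log2(count equivalents + 1) was tested with limma 3.58.1 (R 4.3.3, trended prior, Benjamini-Hochberg adjustment) on autosomal genes. The F0 filter was 10 count equivalents in 3 of the 6 libraries. Alleles, trans component and parental origin came from 1 model of 12 libraries with the library as a block (consensus correlation 0.135, statmod 1.5.0), on genes averaging 10 or more allele-specific hits in F1. F1 levels were averaged over the alleles, and not summed as planned, because the authors had scaled each allele column to a whole library, and were filtered at 10 count equivalents in 3 of 12 libraries. Alternatives were edgeR 4.0.16 on unique hits, DESeq2 1.42.0 on rounded count equivalents, other pseudocounts, filters, scalings and left-out libraries. Scripts were tested on simulated data. Named genes were the 9 genes, C4a, the 3 largest called differences per list and direction, and the 5 genes of highest r for the C1q genes and for C4b, and 1 gene that this rule names is not reported here. Precision is set by the unique hits.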

Additional observations from a re-analysis of the deposited data

Results flagged for a closer look

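The F0 strain difference and the F1 allelic difference differed for 2 of the 8 genes tested, by limma's test of the difference itself, which called 14.0% of all genes tested. For C1qa the difference between them was -1.78 ± 0.42 (SE, adjusted p = 0.00839, limma). C1qa had 33 to 46 unique hits per library in F0 C57BL/6J and 7 to 9 in F0 Cast/EiJ, while the 6 F1 libraries together had 66 hits of the C57BL/6J allele and 63 of the Cast/EiJ allele, with log2 ratios from -1.45 to 1.01 in single libraries. For Cfi the difference was -2.66 ± 0.52 (SE, adjusted p = 0.00213, limma). Cfi had 9 to 17 unique hits in F0 C57BL/6J and 3 to 9 in F0 Cast/EiJ, and in F1 15 hits of the C57BL/6J allele against 49 of the Cast/EiJ allele, with log2 ratios from 0.64 to 2.39. The F1 libraries differ from F0 in generation, mapping reference and lanes, which cannot be told apart. A check of 9 sets of allelic ratios found no single F1 library far from the others, but with 6 libraries per set it had little power. Leaving out a single F1 library did change the allelic call of C1qc and Cx3cr1 and the component call of C3.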

How the results depend on the processing

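Alternative settings were followed for the F0, allelic and trans results of 8 of the 9 genes, and for F1 against F0 in C3 and C4b. The latter were included because they were called, so Cfi, called there in 4 of 20 settings, is not counted. Over these 26 results, 501 values were computed. Of these, 476 kept direction and side of the threshold, 11 lost the call, 6 gained it and 8 turned direction. All turned values belonged to differences that were not called. For C3 between the F0 strains they were -0.30 in edgeR, -0.01 in DESeq2, and -0.08, -0.06 and -0.05 in 3 of the fits that left out a library, which ranged up to 0.31. With a library left out, the allelic difference ran from -0.35 to 0.15 for C1qa and from -0.08 to 0.26 for Csf1r. With a mean of 50 as filter, 0 of 2 genes left were called between the F0 strains, 0 of 1 between alleles, 0 of 1 for the trans component, and 1 of 2 for F1 against F0, the genes left being C4b and Csf1r. Leaving out a library gave 2 to 4 called genes between the F0 strains. With no filter, F0 calls over all genes fell to 3161 of 34964, and 16 of the 32 called genes followed under every setting lost theirs. Parent-of-origin calls, 66 at first, were 31 with posterior SD weights, 38 from ratios per F1 library and 40 in edgeR. Calls between the crosses, 12 at first, were 0 in limma with these weights (647 at an unadjusted p under 0.05), 4 in edgeR, 21 in DESeq2 and 9 to 19 with a library left out. F1 against F0 gave 714 with these weights, against 1797. The causes were not tested.

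The labels do not say that a replicate number marks a shared batch, and the main tests did not treat the samples as paired. Same-numbered pairs among F0 C57BL/6J, F0 Cast/EiJ and F1 B6xCast all deviated together, with r from 0.277 to 0.299 for replicate 1 and 0.116 to 0.149 for replicate 3. Same-numbered pairs with F1 CastxB6 did not, with r from -0.114 to 0.0194. Whether some groups share a batch was not tested. Correlations ran from -0.114 to 0.299, over 0.1 in 6 of 18 same-numbered pairs and in 2 of 36 other pairs. With the replicate block 6376 genes were called between the F0 strains (4887 without it), 6404 between alleles (6305) and 2027 for the trans component (1872), with 4, 4 and 2 of the 9 genes, as without it. It gave 54 for parental origin, 10 between the crosses and 2015 for F1 against F0, where Cfi was called beside C3 and C4b (adjusted p = 0.0447, limma). Only 5 of 12 libraries were most alike to a library of their own number. EdgeR on unique hits was not run for F1 against F0, because F1 hits are allele-specific only. Depth limits the results most for Aif1, Cfi and C3.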

Other observations

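In the other complement and microglia lists, 5 genes were called between the F1 level, averaged over the alleles, and the F0 mean (limma, 12.2% of all genes tested), and they were chosen after their values were seen. P2ry12, a purinergic receptor of microglia, had 25.6 ± 6.81 count equivalents in F0 and 3.77 ± 1.46 in F1 (SD, n = 6), Fcer1g, the common gamma chain of Fc receptors, had 16.0 ± 7.35 and 2.20 ± 1.14, and Csf1, a ligand of the CSF1 receptor, had 54.8 ± 9.37 and 26.8 ± 5.48. The log2 differences were -2.49 for P2ry12, -2.39 for Fcer1g and -1.01 for Csf1. These 3 genes had 0 allele-specific hits in the F1 libraries, against means of 20.2, 13.2 and 37.8 unique hits per F0 library. Clu (-0.14) and Cd59a (0.46), with 5348 and 629 allele-specific hits per F1 library, were the other genes called. The relation of allele-specific hits to the F1 level was not tested.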
